A study of Saccharomyces cerevisiae with 4 samples.

Results

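Inositol and phospholipid synthesis was followed through 10 genes of Saccharomyces cerevisiae, chosen by name from the pathway, with earlier results of these data known: INO1, the uptake gene ITR1, the regulators INO2, INO4 and OPI1, and the phospholipid genes CHO1, PSD1, CHO2, OPI3 and CKI1. Each of the 10 had 1 probe set, and the series held probe sets naming 5656 genes in all. Transcripts were measured on 4 Affymetrix Yeast Genome S98 arrays, 2 of cells expressing Snf1-I132G and 2 of cells expressing Snf1, each from RNA pooled over 3 transformants. Snf1, a protein kinase, is the AMPK of yeast, and the I132G change opens it to the pyrazolopyrimidine inhibitor 2NM-PP1. Both groups grew in SC-ura medium, first with 2% glucose and then for 120 min in 2% raffinose with 0.05% glucose, and both then received 25 µM 2NM-PP1 for 40 min. No array without the inhibitor was analysed here, so the I132G allele and the inhibition of the kinase cannot be told apart. The host strain's genotype and the inositol and choline in the medium are not given in the sources used here. In bulk RNA, fewer cells expressing a gene and less RNA per cell cannot be told apart.

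As background, Ino1 makes inositol phosphate from glucose 6-phosphate, and free inositol then enters phosphatidylinositol. In the CDP-diacylglycerol branch, phosphatidylserine is made by Cho1, decarboxylated to phosphatidylethanolamine by Psd1 and methylated to phosphatidylcholine by Cho2 and Opi3. Many of these genes carry the UASINO promoter element, which the Ino2-Ino4 heterodimer binds and at which Opi1 represses. Yeast lacking SNF1 is known to need added inositol.

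Of the 10 genes, 5 fell in Snf1-I132G and none rose, with p-values from limma adjusted by Benjamini-Hochberg over all probe sets and a threshold of 0.05. At an unadjusted p under 0.05, 6 were lower and 0 higher, beside 29.1% lower and 13.3% higher among all 5199 genes tested. INO1 had the largest fall of the 10, followed by OPI3, CHO1, CHO2 and ITR1, while OPI1, PSD1, CKI1, INO4 and INO2 did not pass. By the adjusted rule, 20.0% of all tested genes fell and 9.10% rose. The median log2 difference of the 10 was -0.72, or -0.47 without INO1, beside -0.16 over all tested genes. Both Snf1-I132G arrays lay below both Snf1 arrays for 9 of the 10, INO2 being the exception, beside 45.4% of all genes, and the reverse held for 0 of the 10, beside 23.9%. The signal in Snf1-I132G was at most 0.5 of that in Snf1 in both same-numbered pairs of arrays for 3 of the 10 (INO1, CHO1 and OPI3), beside 9.33% of all genes. All differences are Snf1-I132G minus Snf1 on log2(signal + 16), and they carry the SE of limma's fit. As nothing shows that the duplicate arrays came from separate cultures, the spread behind each p-value is that of these arrays and may be technical.

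**Figure D1:**
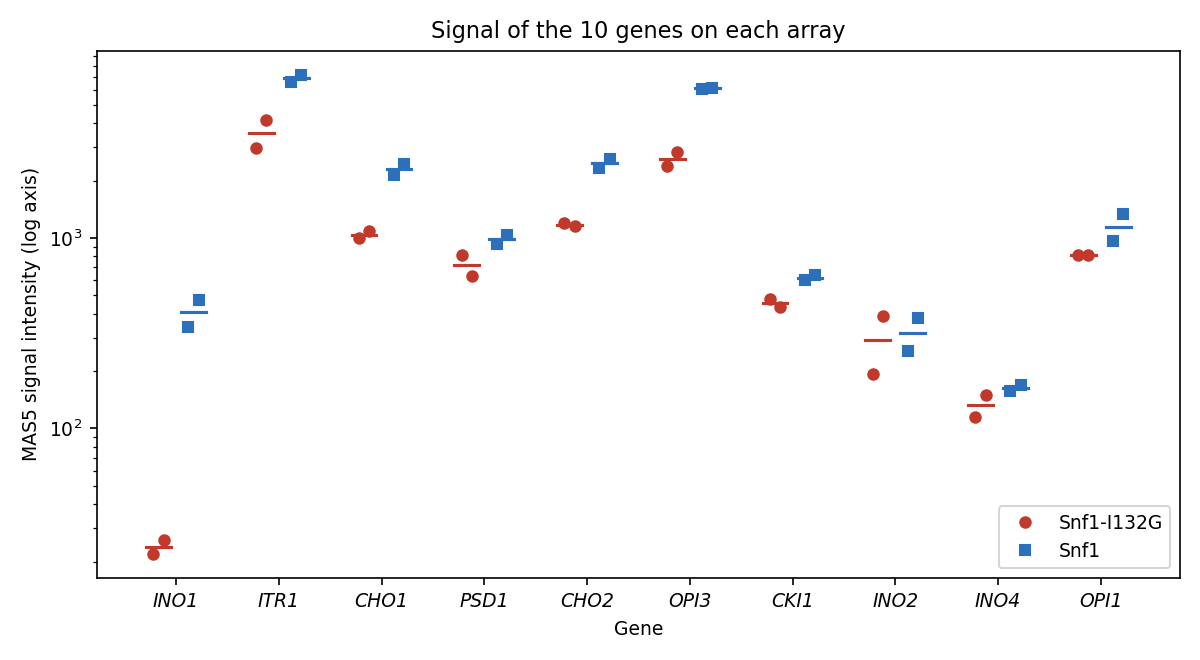
MAS5 signal intensity (log axis) of the 10 genes, with each array as a point, Snf1-I132G as circles left of Snf1 as squares, and group means as bars. INO1 stood at 22.0 and 26.0 in Snf1-I132G, against 342 and 469.7 in Snf1, and INO2 is the gene whose groups overlap.

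INO1, for inositol-3-phosphate synthase, had signals of 22.0 and 26.0 on the Snf1-I132G arrays, against 342 and 469.7 on the Snf1 arrays. Both Snf1-I132G values were below the 25th percentile of their arrays, which stood at 32.0 and 31.8, while both Snf1 values were far above it. The log2 difference was -3.39 ± 0.22 (SE, limma adjusted p = 0.00157), at -3.24 in pair 1 and -3.53 in pair 2. That size depends on the pseudocount, being -4.01 with a pseudocount of 1 and -2.40 with 64. On the linear scale, the Snf1 signal divided by the Snf1-I132G signal was 15.6 in pair 1 and 18.1 in pair 2. Divided by the 25th percentile of the Snf1-I132G array instead, it was 10.7 and 14.8. INO1 ranked 22 from the lowest log2 difference among the 5199 genes. Its 95% interval, -3.93 to -2.85, did not meet the interval of any of the other 9 genes, the lowest of which began at -1.62; the differences between genes were not tested.

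ITR1 encodes the major plasma membrane transporter of inositol. Its signal was 2964 and 4136 in Snf1-I132G, against 6568 and 7186 in Snf1. The groups did not overlap, and the Snf1-I132G arrays were farther apart than the Snf1 arrays. ITR1 fell by 0.97 ± 0.21 on the log2 scale (limma adjusted p = 0.0223). The call was lost without replicate 1 of Snf1 (-1.03, adjusted p = 0.0689) and without replicate 2 of Snf1 (-0.90, adjusted p = 0.1003).

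Of the genes that make phosphatidylserine and turn it into phosphatidylcholine, 3 fell by similar amounts and PSD1 did not pass, beside 20.0% of all genes falling. CHO1, for phosphatidylserine synthase, had 996 and 1087 in Snf1-I132G, against 2142 and 2432 in Snf1. Its log2 difference of -1.12 ± 0.16 (limma adjusted p = 0.00735) was nearly the same in both pairs, at -1.09 and -1.15. CHO2, for phosphatidylethanolamine methyltransferase, had 1192 and 1158 in Snf1-I132G, against 2335 and 2581 in Snf1. CHO2 was lower by a log2 difference of -1.05 ± 0.15 (limma adjusted p = 0.00760), with no overlap of the groups. OPI3, for the phospholipid methyltransferase of the last steps, had 2389 and 2817 in Snf1-I132G, against 6030.1 and 6147 in Snf1. Its log2 difference was -1.23 ± 0.16 (limma adjusted p = 0.00637), and its Snf1 arrays were close to each other. The 95% intervals of CHO1 (-1.51 to -0.73), CHO2 (-1.42 to -0.69) and OPI3 (-1.62 to -0.83) overlapped. That of PSD1 (-0.90 to 0.01) overlapped all 3, and no difference between these genes was tested.

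PSD1, for the mitochondrial phosphatidylserine decarboxylase that acts between Cho1 and Cho2, had 812 and 631 in Snf1-I132G, against 931 and 1035 in Snf1. The groups did not overlap, yet the pairs differed in size, at -0.19 and -0.70. The log2 difference was -0.45 ± 0.18 with an interval of -0.90 to 0.01 (limma adjusted p = 0.130). CKI1, for the choline kinase that opens the Kennedy route to phosphatidylcholine, had 479 and 432 in Snf1-I132G, against 601 and 636 in Snf1. Its log2 difference of -0.43 ± 0.16 had an interval of -0.82 to -0.04 before adjustment and did not pass (limma adjusted p = 0.0950).

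Among the regulators no gene passed, and INO2 gave no steady direction. INO2, for an activator subunit of UASINO genes, had 193 and 388 in Snf1-I132G, against 254 and 380.1 in Snf1. The replicates of each group were wide apart and the groups overlapped. Its log2 difference was -0.17 ± 0.36 with an interval of -1.07 to 0.73 (limma adjusted p = 0.743), and its sign was positive in pair 2 (0.028) and with each array centred on its median (0.013). The sign of INO2 was also positive without replicate 1 of Snf1-I132G (0.30) and without replicate 2 of Snf1 (0.10). INO4, for the partner subunit, had 114 and 150.01 in Snf1-I132G, against 157 and 169 in Snf1. Its groups were next to each other without overlap, and the log2 difference was -0.28 ± 0.20 with an interval of -0.78 to 0.21 (limma adjusted p = 0.327). OPI1, for the repressor, had 814 on both Snf1-I132G arrays, against 958 and 1337 in Snf1. Both Snf1 values were higher, by unequal amounts, and the log2 difference was -0.47 ± 0.20 with an interval of -0.97 to 0.03 (limma adjusted p = 0.142). The intervals of INO2 and INO4 reach down to -1.07 and -0.78, so falls of up to those sizes lie within the intervals of these 2 genes.

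**Figure D2:**
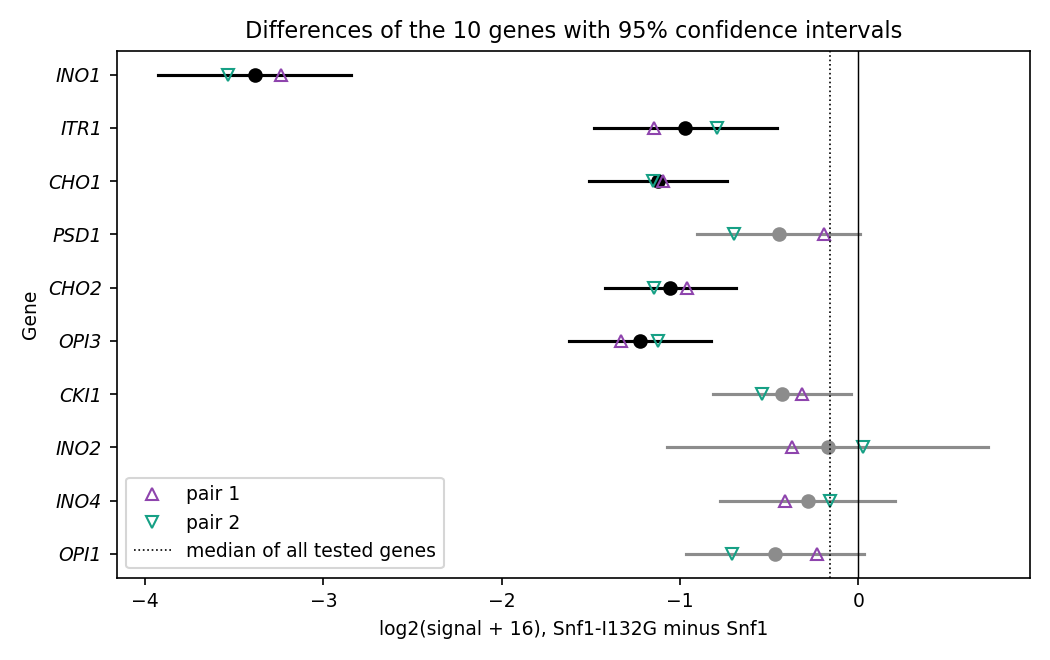
Log2 difference of log2(signal + 16), Snf1-I132G minus Snf1, for the 10 genes, with limma's 95% confidence interval as a bar (black past the adjusted threshold of 0.05, grey otherwise), the same-numbered pairs of arrays as open triangles and the median of all tested genes (-0.16) as a dotted line. INO1 stands apart at -3.39, ITR1, CHO1, CHO2 and OPI3 lie between -1.23 and -0.97, and the other 5 lie between -0.47 and -0.17.

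Arrays of the same number in both groups were read as a pair, and the pair was entered as a replicate block in an alternative fit. With the replicate block, 8 of the 10 genes fell, beside 31.8% of all genes, and 0 rose, beside 17.5%. OPI1 (limma adjusted p = 0.0285), PSD1 (0.0381) and CKI1 (0.0297) joined the falls, while INO2 (0.394) and INO4 (0.188) did not pass. This fit leaves 1 residual degree of freedom.

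The level at which the arrays are set against each other moved the counts. Rises were 31.2% of the called genes on the deposited scale, 41.9% after quantile normalization, 48.1% with arrays centred on their medians and 16.01% with arrays centred on the 9 hybridization controls. The median over all tested probe sets was -0.10, 0.02, 0.09 and -0.33 in that order, and the median of the 10 genes was -0.72, -0.70, -0.53 and -0.95. INO1, ITR1, CHO1, CHO2 and OPI3 were called lower at all 4 scalings, and with hybridization controls OPI1, PSD1 and CKI1 were called too, while the share of all genes called lower there was 34.0%. The falls of INO1, CHO1, CHO2 and OPI3 passed under all 15 alternative fits.

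**Figure D3:**
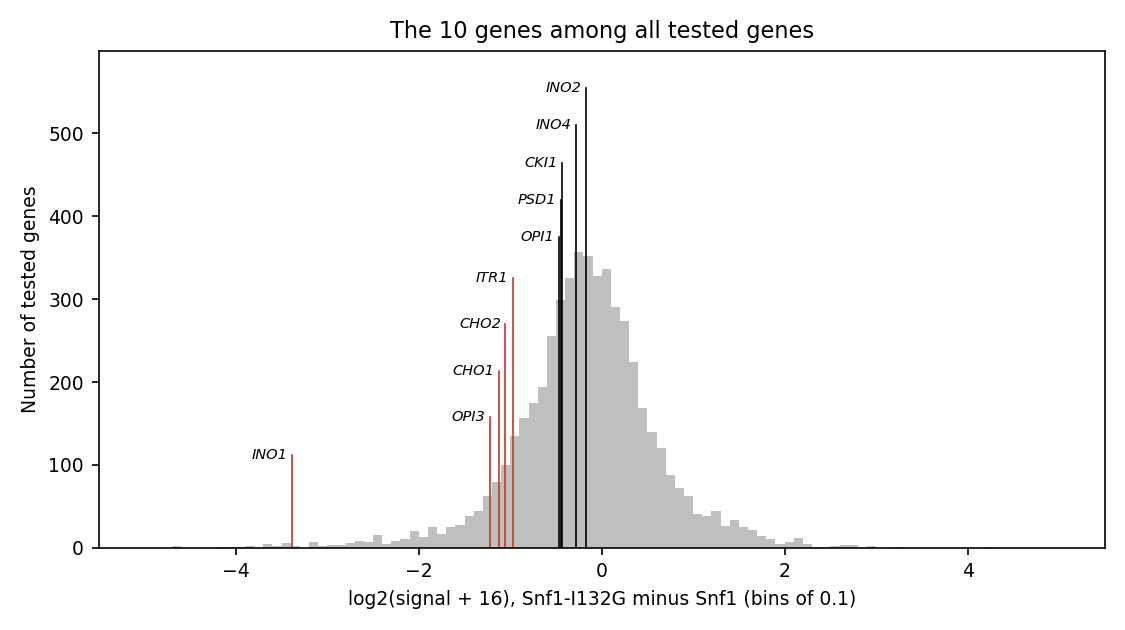
Number of tested genes (grey, 5199 in all) by log2 difference of log2(signal + 16), Snf1-I132G minus Snf1, in bins of 0.1, with vertical lines at the 10 genes (red where the adjusted p was under 0.05, black otherwise; line heights only space the names). INO1 at -3.39 lies in the lower tail, while INO2 and INO4 lie near the median of all genes, -0.16.

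Beyond the 10, 39 other genes of inositol and phospholipid metabolism were on the array and 38 were tested, the glycerophosphodiester transporter gene GIT1 being too dim. Of these 15 fell, 2 rose and 21 did not pass (limma), beside 20.0% of all genes falling and 9.10% rising, and their median log2 difference was -0.48. Without replicate 1 of Snf1 the falls were 5 (CDS1, CPT1, GPT2, ACC1 and SPO14), beside 8.67% of all genes. Without replicate 2 of Snf1 they were 5 (CPT1, GPT2, AYR1, DPP1 and ACC1), beside 7.79% of all genes. With arrays centred on their medians 8 fell, beside 13.5% of all genes, and with hybridization controls 25 fell and 1 rose, beside 34.0% and 6.48%. CPT1, GPT2, ACC1 and the rise of INM1 passed under all 15 alternatives, and the other 12 falls each lost their call under 1 to 7 of them.

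The genes for the monophosphatases that release free inositol moved in opposite directions. INM1 had 1281 and 1495 in Snf1-I132G, against 279 and 366 in Snf1. This was the largest rise among the 38, at a log2 difference of 2.06 ± 0.19 (limma adjusted p = 0.00321); INO1, which acts in the step before, fell. Its paralog INM2 had 205 and 232 in Snf1-I132G, against 363 and 379 in Snf1. INM2 fell by 0.72 ± 0.16 (limma adjusted p = 0.0268). The call of INM2 was lost after quantile normalization (limma adjusted p = 0.0502) and with arrays centred on their medians (0.0545). It was also lost when Snf1-I132G replicate 1 or either Snf1 array was omitted. INM2 was thus called in 10 of 15 alternatives, and INM1 in all 15. The second inositol transporter gene, ITR2, was at -0.41 ± 0.18 and did not pass.

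In the CDP-diacylglycerol branch 1 of 3 genes fell, beside 20.0% of all genes. CDS1, whose product makes CDP-diacylglycerol for both phosphatidylserine and phosphatidylinositol, had 421 and 478 in Snf1-I132G, against 849.7 and 1024 in Snf1 (-1.03 ± 0.17, limma adjusted p = 0.0116). PIS1, for phosphatidylinositol synthase, which joins CDP-diacylglycerol to inositol, had 3506 and 3240.5 in Snf1-I132G, against 3106 and 2940.2 in Snf1. Its log2 difference did not pass, at 0.16 ± 0.15 on the deposited scale (limma adjusted p = 0.462) and, with the opposite sign, with hybridization controls (-0.076). PIS1 was singled out for its place in the pathway after its values were seen.

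In the Kennedy branch 2 of 6 genes fell, beside 20.0% of all genes. CPT1, for cholinephosphotransferase, had 633 and 533 in Snf1-I132G, against 1419 and 1283 in Snf1 (-1.19 ± 0.17, limma adjusted p = 0.00735). HNM1, for the choline transporter, had 203 and 238 in Snf1-I132G, against 395 and 369.9 in Snf1 (-0.76 ± 0.17, limma adjusted p = 0.0260). The call of HNM1 was lost after quantile normalization (adjusted p = 0.0565) and with arrays centred on their medians (0.0554), and when Snf1-I132G replicate 1 (0.0687) or either Snf1 array (0.154 and 0.123) was omitted. The other 4 did not pass, namely PCT1 and ECT1, for the enzymes that charge choline and ethanolamine phosphates with CMP, the ethanolamine kinase gene EKI1 and the ethanolaminephosphotransferase gene EPT1. Their log2 differences were 0.35 for PCT1, 0.09 for ECT1, 0.00 for EKI1 and -0.34 for EPT1, and no difference between genes of the branch was tested.

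**Figure D4:**
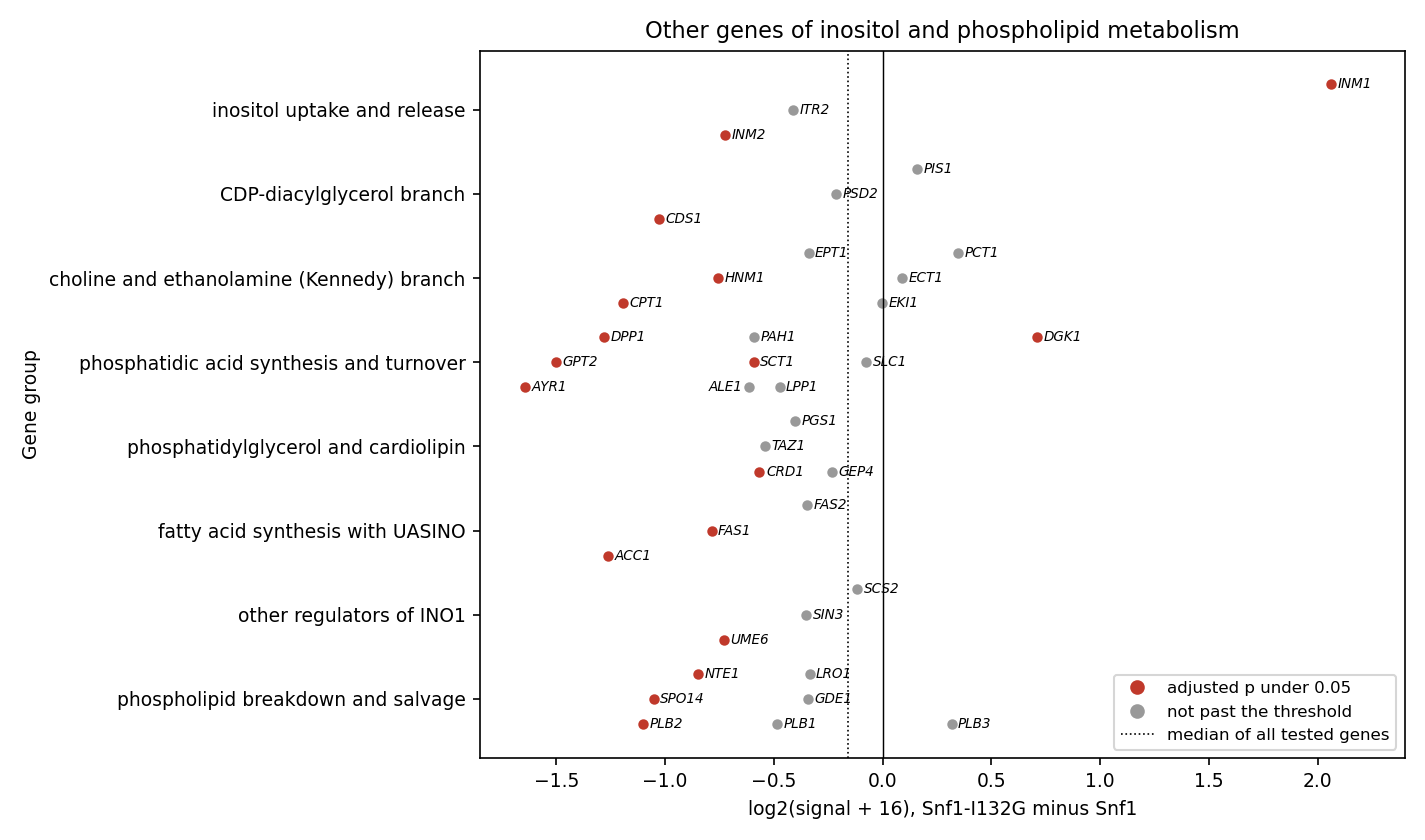
Log2 difference of log2(signal + 16), Snf1-I132G minus Snf1, of the 38 other tested genes by group (rows, with points set at different heights only to part the names), red where limma's adjusted p was under 0.05. Points left of 0 outnumber those right of it in every row, with INM1 at 2.06 and DGK1 at 0.71 the red points on the right.

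Of 9 genes of phosphatidic acid synthesis and turnover 4 fell and 1 rose, beside 20.0% and 9.10% of all genes. GPT2, for a glycerol-3-phosphate acyltransferase, had 319.7 and 322 in Snf1-I132G, against 1023 and 863 in Snf1 (-1.50 ± 0.16, limma adjusted p = 0.00434). SCT1, for the other such acyltransferase, had 675 and 666 in Snf1-I132G, against 1026 and 1011 in Snf1 (-0.59 ± 0.14, limma adjusted p = 0.0327). Both entry enzymes were lower, the fall of GPT2 being the larger in both pairs, though the difference between them was not tested. The call of SCT1 was lost after quantile normalization (limma adjusted p = 0.0863) and with arrays centred on their medians (0.106). It was also lost when any 1 of the 4 arrays was left out, at log2 differences of -0.60 to -0.58. SCT1 was thus called lower in 9 of 15 alternatives. AYR1, for acyl-dihydroxyacetone-phosphate reductase, had 1246 and 569 in Snf1-I132G, against 2952 and 2408 in Snf1 (-1.64 ± 0.37, limma adjusted p = 0.0260), with its Snf1-I132G arrays far apart. DPP1, for diacylglycerol pyrophosphate phosphatase, had 381 and 234 in Snf1-I132G, against 775 and 723 in Snf1 (-1.28 ± 0.25, limma adjusted p = 0.0171). DGK1, for the diacylglycerol kinase that remakes phosphatidic acid, had 1620.4 and 1756 in Snf1-I132G, against 1068 and 983 in Snf1. DGK1 rose by 0.71 ± 0.15 (limma adjusted p = 0.0217), a call lost with hybridization controls and without replicate 2 of Snf1-I132G, replicate 1 of Snf1 or replicate 2 of Snf1. PAH1, for the phosphatase that works against Dgk1, was at -0.59 ± 0.22 and did not pass (limma adjusted p = 0.107, or 0.00567 with the replicate block). PAH1 was likewise singled out after its values were seen.

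In the remaining groups, each of few genes, some genes fell and none rose, beside 20.0% of all genes falling and 9.10% rising. In fatty acid synthesis, whose genes also carry UASINO elements, ACC1 for acetyl-CoA carboxylase had 1784 and 1323 in Snf1-I132G, against 3924 and 3503 in Snf1 (-1.26 ± 0.20, limma adjusted p = 0.00947). Acetyl-CoA carboxylase is known as a substrate of Snf1. FAS1, for the beta subunit of fatty acid synthase, had 805 and 875 in Snf1-I132G, against 1565 and 1361 in Snf1 (-0.79 ± 0.16, limma adjusted p = 0.0187), and 5 of its 8 probe sets fell. The call of FAS1 was lost with arrays centred on their medians (limma adjusted p = 0.0522) and when Snf1-I132G replicate 1 or either Snf1 array was omitted. On the deposited scale with no block, no probe set of 7 tested for the alpha subunit gene FAS2 passed in limma, and 0 had an unadjusted p under 0.05. The brightest FAS2 probe set did pass after quantile normalization, with hybridization controls and with the replicate block (limma adjusted p = 0.0393). CRD1, for cardiolipin synthase, fell by 0.57 ± 0.16 (limma adjusted p = 0.0464), as 1 of 4 genes for phosphatidylglycerol and cardiolipin. UME6, for a repressor of INO1 that acts through the URS1 element, had 117 and 97.2 in Snf1-I132G, against 178 and 197 in Snf1 (-0.73 ± 0.18, limma adjusted p = 0.0359). Both calls were lost after quantile normalization (limma adjusted p = 0.114 for CRD1 and 0.0773 for UME6). They were also lost with arrays centred on their medians (0.122 and 0.0830) and with no filter (0.0591 and 0.0528). The call of CRD1 was lost when any 1 of the 4 arrays was left out, at log2 differences of -0.59 to -0.54. That of UME6 was lost when Snf1-I132G replicate 2 or either Snf1 array was omitted, at -0.80 to -0.62. CRD1 and UME6 were each called lower in 8 of 15 alternatives, and UME6 was not tested at the stricter brightness filter.

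Of 7 tested genes for phospholipid breakdown and salvage 3 fell, beside 20.0% of all genes. SPO14, for phospholipase D, had 219.7 and 248 in Snf1-I132G, against 468 and 537 in Snf1 (-1.05 ± 0.17, limma adjusted p = 0.0105). NTE1, for a phospholipase that deacylates phosphatidylcholine, was at -0.85 ± 0.19 (limma adjusted p = 0.0272). The call of NTE1 was lost after quantile normalization (limma adjusted p = 0.0728) and with arrays centred on their medians (0.0659). It was also lost when Snf1-I132G replicate 2 or either Snf1 array was omitted. PLB2, for a phospholipase B, had 31.8 and 55.8 in Snf1-I132G, against 109 and 110.2 in Snf1 (-1.10 ± 0.25, limma adjusted p = 0.0256), a size to which the pseudocount contributes.

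The tested genes with the array pattern most like that of INO1 were SPG1, YKR075C, CAT8, IDP2 and MRK1. Likeness was the Euclidean distance between the 4 log2 signals after each gene was centred on its own mean, and was 0.16 for SPG1 and 0.29 to 0.32 for the other 4. Their log2 differences were -3.44 for SPG1, -3.43 for YKR075C, -3.47 for CAT8, -3.68 for IDP2 and -3.48 for MRK1. SPG1 and CAT8, like INO1, were below the 25th percentile on both Snf1-I132G arrays, and the near equality depends on the pseudocount. With a pseudocount of 1, INO1 was at -4.01, CAT8 at -4.57, SPG1 at -4.26, IDP2 at -3.98, MRK1 at -3.68 and YKR075C at -3.66. With 64, INO1 was at -2.40, SPG1 at -2.33 and CAT8 at -2.21, while YKR075C, MRK1 and IDP2 were at -2.89, -3.00 and -3.03. With 4 arrays in 2 groups this likeness is mostly a like difference between the groups. SPG1 had 16.2 and 17.6 in Snf1-I132G, against 272 and 430.2 in Snf1. In INO1 and SPG1 the second Snf1 array was the brighter, as it also was in YKR075C, CAT8, IDP2 and MRK1. The median signal of that array was the higher of the Snf1 arrays too, at 161 against 152. In MRK1 the Snf1 arrays were close, at 1170 and 1178. The 5 genes were picked for likeness to INO1 over these same signals, so a shared order follows partly from how they were picked.

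The genes on either side of the 10 in RefSeq order (assembly R64, used for names and order only) were examined after values were seen. None of the 20 overlapped its neighbour among the 10, and 18 were tested, of which 8 fell in limma, beside 20.0% of all genes. The count was 3 with arrays centred on their medians (13.5% of all genes fell), 12 with hybridization controls (34.0%) and 11 with the replicate block (31.8%). It was 4 after quantile normalization (15.2%), 4 with no filter (15.7%) and 5 with a filter at the 50th percentile (23.2%). Leaving out an array gave 7 without Snf1-I132G replicate 1 (17.4%), 3 without Snf1-I132G replicate 2 (14.0%), 3 when the first Snf1 array was omitted (8.67%) and 1 when the second was (7.79%). Beside INO1, VPS35 was at -0.78 ± 0.20 (limma adjusted p = 0.0369) and SNA3 at -0.47 ± 0.15 (limma adjusted p = 0.0640), against the -3.39 of INO1. The call of VPS35 was lost without any 1 of the 4 arrays, with adjusted p between 0.0521 and 0.204. It was also lost after quantile normalization (0.0768), with arrays centred on their medians (0.0786) and with no filter (0.0546). SNA3 passed with the replicate block (adjusted p = 0.0103), after quantile normalization (-0.63, 0.0157) and with hybridization controls (-0.71, 0.0267). The other 7 that fell lay beside genes that did not pass, and each had a larger difference than its neighbour among the 10. They were AIM17 at -1.45 and APM2 at -0.78 beside OPI1, YOL107W at -1.18 beside INO4, KIN1 at -1.04 beside INO2, USB1 at -1.17 and PDC5 at -0.82 beside CKI1, and APC1 at -0.76 beside PSD1. These differences between neighbours were not tested. As these 7 passed the threshold and the genes beside them did not, their larger differences follow largely from how they were picked. AIM17 passed in every fit without 1 array, after quantile normalization and with arrays centred on their medians. KIN1 and YOL107W lost their calls when the second Snf1 array was omitted (adjusted p = 0.0924 and 0.0509). APM2, APC1, USB1 and PDC5 lost theirs when either Snf1 array or Snf1-I132G replicate 2 was omitted (0.0621 to 0.197), and under both of those scalings (0.0625 to 0.104). On the deposited scale with no block, none of the 8 tested neighbours of ITR1, CHO1, CHO2 and OPI3 passed. Their log2 differences ran from -0.47 to 0.63, while 20.0% of all genes fell and 9.10% rose. This did not hold in every fit. The counts of 12 with hybridization controls and 11 with the replicate block must include some of these neighbours.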

How the data were processed

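The authors deposited 1 linear signal intensity per probe set and array, from MAS5 per the submitters' processing notes. Its version and the build behind the array design are not given in the sources used here. Without the top and bottom 2%, array means were 500.4 to 500.5, which shows that each array had been scaled. Of 9275 non-control probe sets, 6504 had 1 gene in the platform annotation, 328 several and 2443 none, and all 6504 matched RefSeq R64 names. Probe sets whose mean signal reached the 25th percentile (6956) were fitted as log2(signal + 16) with limma 3.58.1 in R 4.3.3 (intensity trend, no covariates), with Benjamini-Hochberg adjustment over all of them. The brightest probe set stood for each gene, giving 5199 genes. The fit was tested on simulated data.

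Array medians were 132 and 139 in Snf1-I132G and 152 and 161 in Snf1, and log2 signals correlated at 0.976 and 0.981 within groups and 0.900 to 0.920 between them across probe sets. With 2 arrays a group, their number limits the precision. Same-numbered arrays share a string in their file labels, taken here, without certainty, to mark a shared run, and their deviations from group means correlated at 0.513. The members, lists and naming rule (all 10, other pathway genes past the threshold, and the 5 genes nearest to INO1) were chosen with earlier results of these data known. A planned motif search of promoters was not run, as no promoter sequence was used here.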

Additional observations from a re-analysis of the deposited data

How the results depend on the processing

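Alternatives were 3 other scalings, other pseudocounts (1 and 64) and brightness filters (none, or the 50th percentile), 2 variance models, 1 probe set per gene, the replicate block and leaving out each array. Members called lower numbered 5, or 8 with the replicate block and 8 with centring on hybridization controls; leaving out an array gave 4 to 5. Pathway genes called lower numbered 15, or 8 with median centring, 25 with hybridization controls and 5 to 11 without an array, and those called higher numbered 2, or 1 with hybridization controls and 1 to 2 without an array. The replicate block gave 21 lower pathway genes, adding ITR2, ALE1, PAH1, TAZ1, FAS2 and PLB1, beside 31.8% of all genes. Of all genes, 20.0% were called lower on the deposited scale, 13.5% with median centring and 34.0% with hybridization controls. Probe sets called lower numbered 1219, or 811 with median centring, 2110 with hybridization controls, 1986 with the block and 466 to 1061 without an array. Probe sets called higher numbered 713, or 1356 with the block and 337 to 663 without an array. INO2 changed sign with median centring (0.013), within pair 2 (0.028) and when arrays were left out (-0.65 to 0.30), and PIS1 did with hybridization controls (-0.076). The other 9 members kept their sign in every fit that tested them; INO4 was not tested at the 50th percentile filter. The cause of these changes was not tested. The lone array left in a group after such an omission is assumed to vary like the other group. No gene among the 10 had another probe set to compare. Signals near the 25th percentile, as for INO1 in Snf1-I132G, bound a fold rather than measure it.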
